A study of Sus scrofa with 24 samples.

Results

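Subcutaneous fat of 16 pigs was compared between a line with low residual feed intake (RFIneg, 8 pigs) and a line with high residual feed intake (RFIplR, 8 pigs), 16 of the 24 samples of the study. The samples were taken by their titles. RFIneg pigs ate freely, and RFIplR pigs were held to the feeding level of RFIneg, so the comparison asks how the lines differed in fat at one level of feeding. The remaining 8 samples (RFIpl) came from the high line with free access to feed, and their levels are given only beside those of the other groups. Each pig gave 1 piece of fat at 115 kg body weight and 1 array with 60-base probes and a single dye, Cy3. The age and sex of the pigs are not given in the sources used here. A piece of fat holds several cell types, so fewer cells of a type and less RNA per cell cannot be told apart.

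Residual feed intake is the part of an animal's intake left over once growth and upkeep have been accounted for, so a pig of the low line eats less for the same gain. White fat takes up glucose and circulating fatty acids, stores them as triglyceride and releases them by lipolysis. In pigs it is also the main site where fatty acids are built from glucose and acetate, and the mitochondria of the fat cell supply citrate for that synthesis.

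No probe differed between RFIneg and RFIplR at the adjusted threshold. Every difference below is therefore given as a size and not as a change, with its error for part of the genes. Of the 27 pathway lists read, fatty acid synthesis had the highest median difference, and all 11 of its measured genes were higher in RFIneg, or 9 without the array RFIplR 8. Its leading member was malic enzyme ME1 (2.16-fold, adjusted p = 0.359, limma). Most measured genes of the citrate cycle, the respiratory chain, glycolysis and cholesterol synthesis were higher by smaller amounts. Most genes of the cytosolic ribosome and of the interferon response lay below 0, though the sign of both medians turned under some alternatives given with them. The carboxylesterase CES1 and the carbonic anhydrase CA3, which stood lower in freely fed RFIpl pigs, had similar median levels on the bright arrays of RFIneg and RFIplR.

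The tissue label was checked first against markers of fat cells, and all 10 listed ones were measured, among them ADIPOQ, PLIN1 and LEP. The log2 of their summed intensity spanned 10.2 to 10.6 on bright RFIneg arrays and 10.2 to 10.5 on bright RFIplR arrays. The median difference over these markers was 0.08, with 8 of 10 higher in RFIneg. Their median deviation from the mean of the arrays of one brightness was -0.21 to 0.24 on bright RFIneg and -0.21 to 0.038 on bright RFIplR arrays, and 0.022 and 0.14 against -0.17 to -0.0099 on dim ones. The part of this shift in the metabolic differences was not tested. Levels throughout are log2 intensities minus the 75th percentile of the same array, and a difference is RFIneg minus RFIplR, so that 1 unit is a 2-fold difference.

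The arrays came in a bright and a dim class, with a 75th percentile of 459 to 649 on 11 arrays and of 69.4 to 84.8 on 5. RFIneg 1 and 7 and RFIplR 2, 4 and 6 were dim. A bright and a dim array correlated at 0.761 to 0.8, against 0.972 to 0.990 between bright arrays, so brightness was a term of the fit and levels are compared within a class. The difference between the groups itself differed between the classes at 10 kept probes (0.0394%) at an adjusted p under 0.05 in limma. Once brightness was removed, the first component held 17.4% of the variance. RFIneg 8 scored 34.0 on it, where the other RFIneg arrays scored -39.0 to -7.11, and RFIplR 8 scored -23.6, where the other RFIplR arrays scored -1.58 to 50.9. These 2 arrays stood on the side of the other group. Whether their labels were exchanged was not tested. Each was left out singly, with its label kept, and counts that moved are given both ways. To leave out an array because it resembles the other group selects by the measured outcome and tends to widen the differences. Higher counts without such an array are therefore not stronger results. RFIneg 5 and RFIneg 6 held transcripts of skeletal muscle. A probe of ACTA1, the actin of skeletal muscle, read 2.03 and 3.16 on them and -5.29 to -2.08 on the other bright RFIneg arrays, and the bright RFIplR arrays read -7.88 to -4.86. MYLPF, a light chain of fast muscle myosin, read 0.97 and 2.06 on them and -2.04 to -1.25 on the other bright arrays of both groups. The counts without both arrays are therefore given as well.

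**Figure D1:**
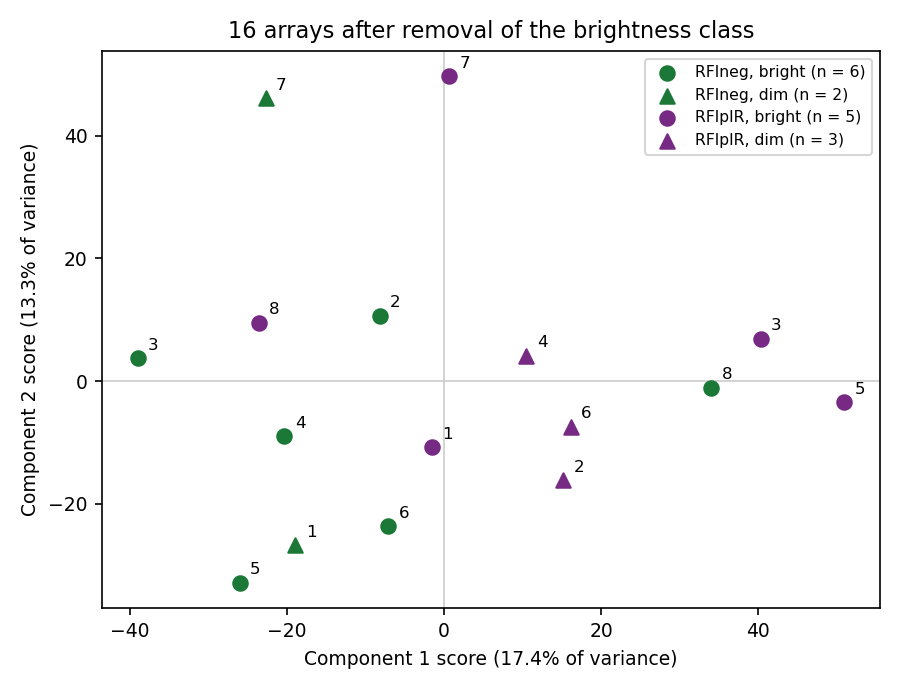
Scores of the 16 arrays on the first (17.4% of variance) and second (13.3%) principal components after removal of the brightness class, with the replicate number beside each point, circles for bright and triangles for dim arrays. RFIneg 8 (34.0) lies among the RFIplR arrays on the first axis, and RFIplR 8 (-23.6) lies among the RFIneg arrays.

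Of 25386 kept probes, 0 passed an adjusted p of 0.05 in limma (0% called, smallest adjusted p 0.321). At an unadjusted p under 0.05 there were 2584 probes (10.2%), of which 1335 (5.26%) were higher and 1249 (4.92%) lower in RFIneg. Over the 4053 genes with a single symbol, each at its brightest kept probe, 398 (9.82%) were at that p, 222 (5.48%) of them higher and 176 (4.34%) lower. The difference lay above 0 in 56.1% of genes, and their median difference was 0.026. Over all probes the share above 0 was 54.9%, and it was 40.5% with normexp background correction. With slide or scan day added to brightness in the fit, 0 probes passed the adjusted threshold, and 2927 and 3728 were at an unadjusted p under 0.05. The 95% interval of a probe had a median half-width of 0.30, which is 1.23-fold. For 23646 probes (93.2%) the interval excluded a 2-fold difference either way, and 86 probes were beyond 2-fold, 49 of them higher and 37 lower. The groups did not overlap on the bright arrays in 146 probes (0.575%). Depth in the sense of counts does not apply to arrays, whose number limits the precision.

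**Figure D2:**
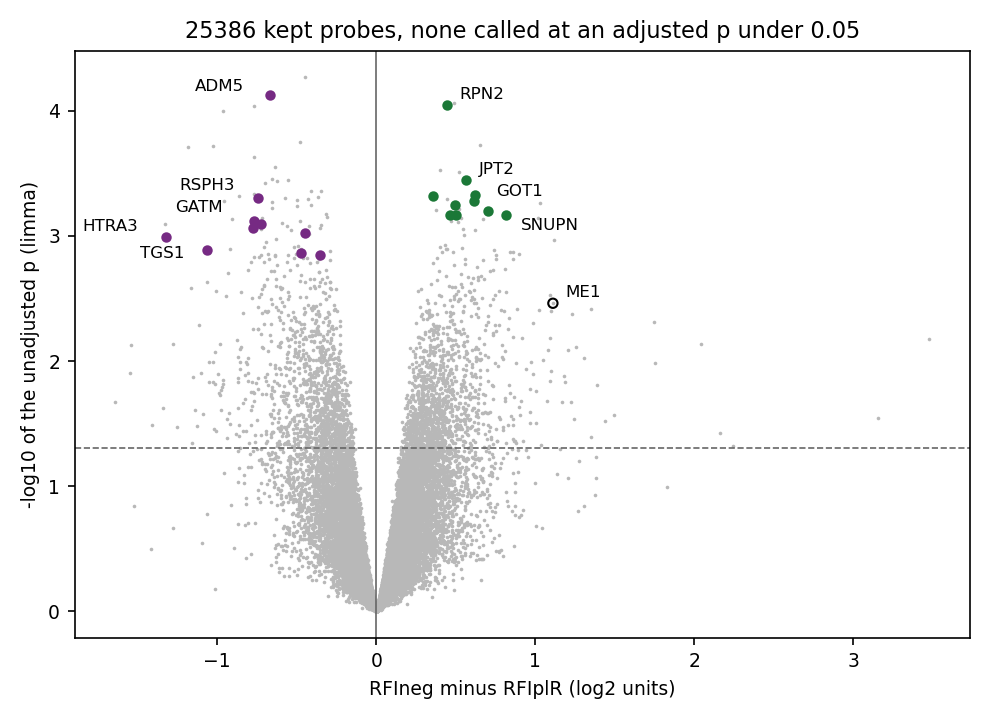
Difference RFIneg minus RFIplR in log2 units against -log10 of the unadjusted p for the 25386 kept probes, with the dashed line at an unadjusted p of 0.05. Green and purple points are the 10 genes with the smallest p on either side, the open circle is ME1 at 1.11, and no probe passed the adjusted threshold.

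The 10 genes with the smallest p on either side all had an adjusted p of 0.321 to 0.325 in limma and are a ranking, not calls. On the higher side the list was led by RPN2, a subunit of the complex that attaches sugar chains to proteins in the endoplasmic reticulum. RPN2 read 0.329, 0.344, 0.256, 0.148, 0.200 and -0.014 on the bright arrays RFIneg 2, 3, 4, 5, 6 and 8, and -0.306, -0.561, -0.286, -0.100 and -0.102 on RFIplR 1, 3, 5, 7 and 8. The dim arrays read 0.658 and 0.578 in RFIneg and 0.314, 0.320 and 0.164 in RFIplR. The groups did not overlap on the bright arrays. The difference was 0.44 (SE 0.085), and all 9 RPN2 probes were higher in RFIneg, 6 of them at an unadjusted p under 0.05. Probes of one gene were read on the same arrays, and some overlap in sequence. Counts of probes here and below are therefore not independent support.

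GOT1, the cytosolic aspartate aminotransferase, was higher by 0.70 (SE 0.17) at its ranked probe, and all 4 of its probes were higher at an unadjusted p under 0.05. Its bright arrays read -0.742 to -0.403 in RFIneg apart from RFIneg 8 at -1.29, and -1.67 to -0.963 in RFIplR. The GOT1 groups thus overlapped on the bright arrays, through RFIneg 8. RDH11, a retinol dehydrogenase, was higher by 0.50 (SE 0.12), and its 6 probes spanned 0.40 to 0.53, each at an unadjusted p under 0.05. The ranked RDH11 probe was well above background on 7 RFIneg and 5 RFIplR arrays, the other 5 on all 8 of each. PFKM, the muscle-type phosphofructokinase that is also expressed in fat, was higher by 0.61 (SE 0.14) and 0.52 (SE 0.12) at its 2 probes. Without the arrays RFIneg 5 and 6, these PFKM differences were 0.59 and 0.50. SNUPN, an import adaptor of small nuclear ribonucleoproteins, was higher by 0.82 (SE 0.19) at its ranked probe, but its other 2 probes stood at 0.08 and 0.11. The remaining genes of this side were JPT2, PTPLB, CDK5RAP1, LRSAM1 and HDGF, with differences of 0.36 to 0.62. PTPLB and LRSAM1 were well above background on 7 RFIneg and 5 RFIplR arrays, so that they were kept through the group where they were high.

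GATM was among the ranked genes of the lower side, and some of its probes overlap in sequence. GATM makes guanidinoacetate, the precursor of creatine, and all 7 of its probes were lower in RFIneg at an unadjusted p under 0.05, with differences of -0.77 to -0.38. At the ranked probe the bright arrays RFIneg 2, 3, 4, 5 and 6 read -0.293, -0.540, -0.548, -0.762 and -0.020, while RFIneg 8 read 0.761. The bright RFIplR arrays read 0.115 to 0.718. The GATM level of RFIneg 8 lay above all of them, and the other 5 RFIneg arrays lay below all of them. Without RFIneg 8, GATM passed the adjusted threshold at 3 probes (-0.91, -0.83 and -0.87, adjusted p = 0.034 to 0.046, limma). RFIneg 8 was the only bright RFIneg array above RFIplR here, so leaving it out widens the difference by construction.

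SMAD7, an inhibitor of TGF-beta signalling, was lower by 0.78 (SE 0.19). It was the only other of the 20 ranked genes whose groups did not overlap on the bright arrays. Its bright arrays read -4.91 to -4.37 in RFIneg and -4.25 to -3.63 in RFIplR. It was a dim probe, well above background on 5 RFIneg and 7 RFIplR arrays. HTRA3, a secreted serine protease, differed by -1.32 (SE 0.33), and its probe was well above background on 4 RFIneg and 7 RFIplR arrays. SMAD7 and HTRA3 were thus kept through the group where they were high, and the size of their differences is uncertain. TGS1, which modifies the cap of small nuclear RNA, was lower by 1.07 (SE 0.27) at its ranked probe, and its 4 probes spanned -1.07 to -0.22. The other ranked genes were ADM5, RSPH3, BBS5, REPS1, TRMT6 and POU2F1, with differences of -0.74 to -0.36. All 6 REPS1 probes were lower, 5 of them at an unadjusted p under 0.05.

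Without RFIneg 8, 17 of the 25386 probes passed the adjusted threshold (0.067%), 4 higher and 13 lower in RFIneg. Since that array stood on the side of RFIplR, these probes are a description and not calls. Beside GATM they named DYNLL1, a light chain of dynein (0.79), and the zinc finger protein ZNF672 (-0.87), and 12 of the 17 had no symbol. Without RFIplR 8, 1 probe with no symbol passed, and without RFIneg 5 and 6 together none did. The latter fit had 2055 probes at an unadjusted p under 0.05. There were 3756 without RFIneg 8 (2087 higher in RFIneg) and 3255 without RFIplR 8 (1767 higher). The fit of all 16 arrays had 2584 (1335 higher). List counts without either array below stand beside this general rise.

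A single probe is shown here for some of the genes discussed. The letters are those of the array's design, 5′ to 3′. Capitals mark the codons of the only forward reading frame without a stop codon, and lower case throughout marks a probe with 2 such frames. An open frame does not settle where a probe lies in its transcript, and no genome was matched here.
ACLY: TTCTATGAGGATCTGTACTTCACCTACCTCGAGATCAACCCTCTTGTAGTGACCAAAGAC
ACSS2: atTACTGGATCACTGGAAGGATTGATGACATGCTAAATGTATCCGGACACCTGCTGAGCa
SCD: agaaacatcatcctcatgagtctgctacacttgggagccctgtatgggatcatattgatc
RPN2: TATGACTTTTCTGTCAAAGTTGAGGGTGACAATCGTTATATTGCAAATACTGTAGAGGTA
GATM: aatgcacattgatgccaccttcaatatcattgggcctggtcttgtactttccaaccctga
These probes gave a difference of 0.97 for ACLY, 0.76 for ACSS2, 0.81 for SCD, 0.44 for RPN2 and -0.38 for GATM. Only the RPN2 probe is the ranked one whose levels are given above. The levels of the other genes come from other probes, with 0.84 for ACLY, 0.84 for ACSS2, 0.17 for SCD and -0.77 for GATM. The ACLY and SCD probes shown had the largest difference of their gene, and those of ACSS2 and GATM the smallest.

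Of the genes of fatty acid synthesis, 11 of 19 listed ones were measured and all 11 were higher in RFIneg, 4 of them at an unadjusted p under 0.05 and 0 lower at that p. The median difference was 0.28, beside 0.026 over all genes, of which 5.48% were higher at that p. Within the bright arrays the median was 0.29, below cholesterol synthesis (0.35) and glycolysis (0.31). Within the dim arrays it was 0.25, below fatty acid uptake (0.48), DNA replication and mitosis (0.44) and lipid droplet and lipolysis (0.30). The 5 slides that held both groups in one brightness class had 1 or 2 RFIneg arrays and 1 RFIplR array each. The median of fatty acid synthesis lay above 0 on each of them. The same held for insulin and IGF signalling (median -0.01) and for chemokines (0.04), so that count does not set the list apart. Leaving out single arrays gave 3 to 5 members at an unadjusted p under 0.05 with 9 to 11 genes higher, the 9 being without RFIplR 8. The same 4 members were at that p without RFIneg 5 and 6, without RFIneg 8 and without RFIplR 8. Members at that p which the ranking by list did not choose are named here and below after their values were seen.

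ME1 supplies NADPH for fatty acid synthesis. Its bright arrays RFIneg 2, 3, 4, 5, 6 and 8 read 4.12, 5.60, 5.29, 4.49, 4.295 and 3.14, and RFIplR 1, 3, 5, 7 and 8 read 3.52, 3.11, 2.885, 4.45 and 3.18. The dim arrays read 2.96 and 3.69 in RFIneg and 1.88, 2.77 and 1.63 in RFIplR. RFIneg 8 was the lowest of its bright group and RFIplR 7 the highest of the other, and the bright groups overlapped. The difference was 1.11 (SE 0.32, adjusted p = 0.359, limma).

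ACLY splits cytosolic citrate into acetyl-CoA, and ACSS2 makes acetyl-CoA from acetate. ACLY read 7.48 to 8.11 on bright RFIneg arrays apart from RFIneg 8 at 6.20, and 5.75 to 7.598 on bright RFIplR arrays. The difference was 0.84 (SE 0.32, adjusted p = 0.42, limma) and became 1.03 without RFIneg 8. ACSS2 read 3.62 to 5.70 on bright RFIneg arrays and 2.99 to 4.52 on bright RFIplR arrays, a difference of 0.84 (SE 0.31, adjusted p = 0.407, limma). The bright groups overlapped for both genes, while all 3 probes of each were higher at an unadjusted p under 0.05.

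The elongase ELOVL5 was higher by 0.64 and MLXIPL, the carbohydrate-responsive transcription factor, by 0.39. The core enzymes were closer to 0 at their brightest probes, with 0.21 for the acetyl-CoA carboxylase ACACA, 0.21 for the fatty acid synthase FASN and 0.17 for the desaturase SCD. Most of their other probes gave larger differences, with 1 SCD probe lower at 0.08. ACACA stood at 1.02 at its second probe, FASN at 0.55 and 0.62, and the 9 SCD probes spanned 0.08 to 0.81, 7 of them at an unadjusted p under 0.05. SREBF1, a transcription factor of lipid synthesis, was higher by 0.18, the pentose phosphate enzyme PGD by 0.28 and the desaturase FADS1 by 0.05.

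**Figure D3:**
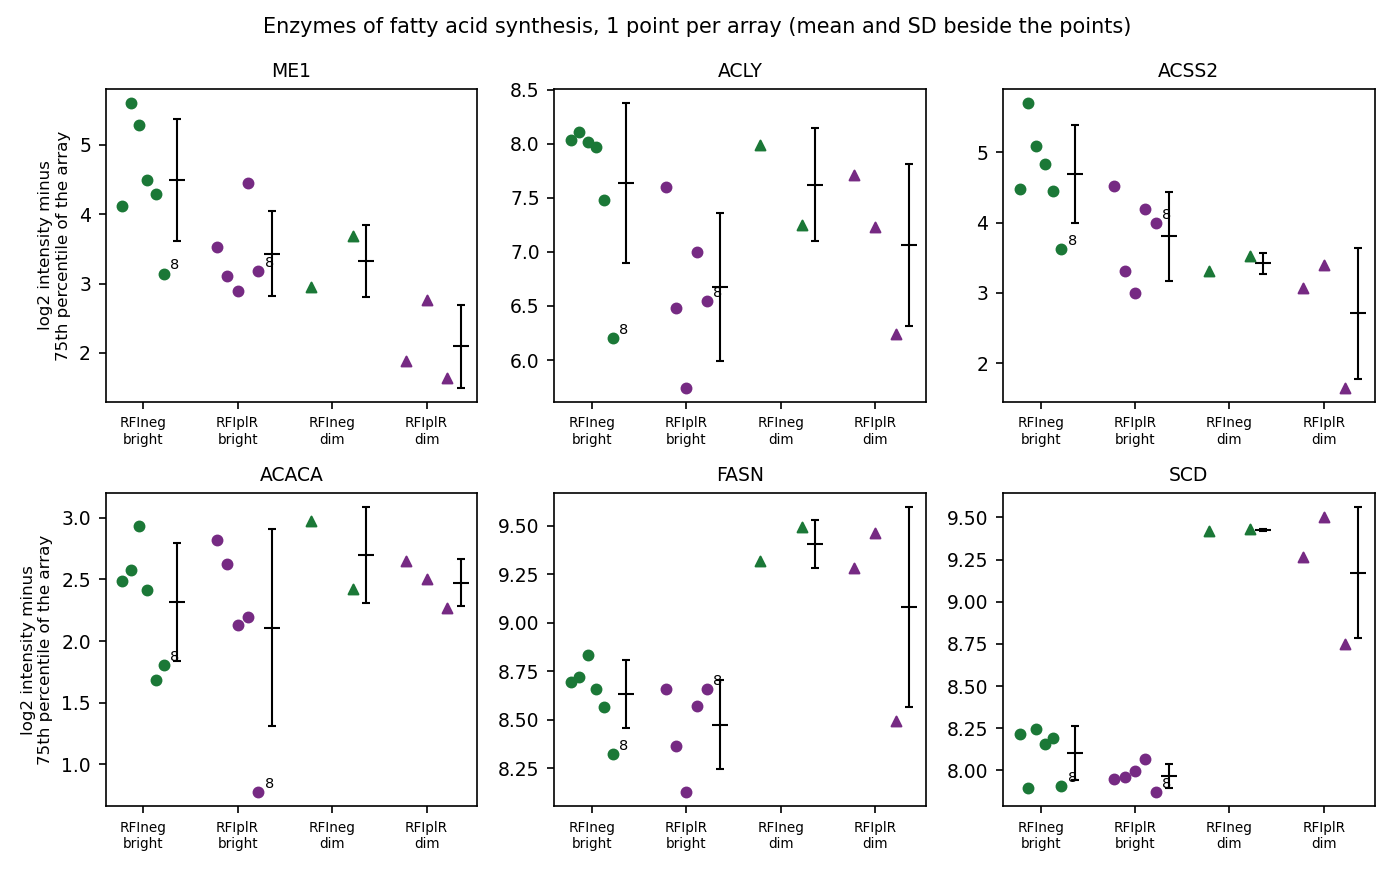
Levels of 6 enzymes of fatty acid synthesis on each array (log2 intensity minus the 75th percentile of the array), by group and brightness class, with the mean and SD of each set beside the points and replicate 8 marked. For ME1, RFIneg 8 (3.14) is the lowest bright RFIneg array, and the bright arrays of the groups overlap.

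Of 13 measured genes of triglyceride synthesis, 7 were higher, with a median of 0.01. DGAT2, the acyltransferase of the last step, was higher by 0.62 (SE 0.29, adjusted p = 0.476, limma), with bright levels of 4.40 to 6.37 in RFIneg and 4.31 to 5.76 in RFIplR. AGPAT3, an acyltransferase of an earlier step, was lower by 0.23 (SE 0.10). These were the only members at an unadjusted p under 0.05, and neither was without RFIneg 5 and 6. The fatty acid activating enzyme ACSL1 was higher by 0.43, and ACSL3, ACSL4 and ACSL5 stood at -0.15, -0.18 and -0.12.

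Genes of fatty acid uptake had a median of 0.22 over 9 measured members, 8 of them higher. The intracellular carriers FABP3 (0.34) and FABP5 (0.32) and the membrane transporter CD36 (0.28) were higher at an unadjusted p under 0.05, and single arrays left out gave 0 to 4 such members. CD36 read 6.65 to 7.36 on bright RFIneg and 6.70 to 7.10 on bright RFIplR arrays, and 5.81 and 6.46 against 5.42 to 5.75 on dim ones. The CD36 groups overlapped on the bright arrays. LPL, the lipase of the vessel wall, was higher by 0.22.

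Among 15 genes of the lipid droplet and lipolysis, 11 were higher with a median of 0.12, and none was at an unadjusted p under 0.05. Monoglyceride lipase MGLL was higher by 0.50 (SE 0.25), hormone-sensitive lipase LIPE by 0.21 (SE 0.10) and the triglyceride lipase PNPLA2 by 0.08 (SE 0.17). The list had 3 higher and 1 lower at that p without RFIneg 8, and 2 higher without RFIplR 8. Its median was 0.20 without RFIneg 8 and 0.05 without RFIneg 7, where 8 were higher. PNPLA2 went the other way within the bright arrays (-0.11). The droplet coat protein PLIN1 stood at 0.08 and FABP4, the main fatty acid carrier of fat cells, at 0.07.

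Adipokines and genes of fat cell identity were close to 0, with a median of 0.05 over 12 members and none at an unadjusted p under 0.05, though 2 were without RFIneg 8 and 2 without RFIplR 8. The transcription factor CEBPB stood at 0.29. ADIPOQ, which encodes adiponectin, differed by -0.02 (SE 0.085), and its 95% interval ran from -0.20 to 0.16. PPARG, the main regulator of the fat cell state, differed by 0.08 (SE 0.13). Leptin, the hormone that reports fat stores, differed by -0.02 (SE 0.34) over the 16 arrays, but the classes went opposite ways. LEP read 3.30 to 3.75 on bright RFIneg and 2.53 to 3.40 on bright RFIplR arrays, a difference of 0.61. On the dim arrays it read 1.91 and -0.50 in RFIneg and 1.98 to 2.33 in RFIplR, a difference of -1.45, and RFIneg 7 was the low array. Without RFIneg 7 the LEP difference was 0.43.

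In the citrate cycle and pyruvate metabolism, 18 of 20 measured genes were higher, 3 of them at an unadjusted p under 0.05, with a median of 0.235. DLAT and DLD, subunits of the pyruvate dehydrogenase complex, were higher by 0.45 (SE 0.15) and 0.35 (SE 0.11), and citrate synthase CS by 0.29. The DLD level was 3.36 to 4.004 on bright RFIneg arrays and 2.99 to 3.45 on bright RFIplR arrays. All 9 DLD probes were higher, 7 at an unadjusted p under 0.05. MDH2 stood at 0.35 and PCK1, which makes glycerol precursors in fat, at 0.63 (SE 0.71), while the kinase PDK1 stood at -0.04. Without RFIneg 8 the list had 8 members at that p, and without RFIneg 5 and 6 it had 3.

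The respiratory chain went the same way by smaller amounts. Complex I had 9 of 10 measured genes higher with a median of 0.19, led by NDUFB6 (0.29, SE 0.12) and NDUFS6 (0.20, SE 0.097). In complexes II to IV all 12 were higher with a median of 0.18 and none at an unadjusted p under 0.05. SDHA, the flavoprotein of complex II, stood at 0.25 (SE 0.13). All 7 probes of SDHD, a membrane anchor of complex II, were higher, 5 of them at that p, and so were all 12 probes of cytochrome c, CYCS, 7 of them at that p. The ATP synthase had 9 of 11 genes higher with a median of 0.18. ATP5A1 (0.38), ATP5G1 (0.34) and ATP5B (0.32) were its members at an unadjusted p under 0.05, and 1 was without RFIneg 5 and 6. The 9 ATP5B probes spanned 0.32 to 0.59, each at that p.

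ATP5B, the catalytic beta subunit, read 6.02 to 6.94 on bright RFIneg and 5.95 to 6.601 on bright RFIplR arrays, and 5.92 and 5.999 against 5.29 to 5.84 on dim ones. The bright groups overlapped. Without RFIneg 8, members at an unadjusted p under 0.05 numbered 6 in complex I, 6 in complexes II to IV and 5 in the ATP synthase. Over all 25386 probes, those higher at that p rose from 1335 to 2087 in that fit. With one or another single array left out, each of the 3 lists had 0. Carriers and uncoupling proteins had a median of 0.05 over 9 genes, with the porins VDAC1 at 0.23 and VDAC2 at 0.15 and UCP3 at -0.19.

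In fatty acid oxidation 15 of 19 genes were higher with a median of 0.14, of which the peroxisomal enzymes EHHADH (0.31) and HSD17B4 (0.28) were at an unadjusted p under 0.05. The median was 0.01 within the bright arrays and 0.25 within the dim ones. Without RFIneg 7 it was 0.06, with 11 of 19 higher and 0 higher at that p. PPARA, the receptor that drives these genes in liver, had the lowest difference of all genes (-1.545, SE 0.50, adjusted p = 0.379, limma). Its 2 probes disagreed, since the other stood at 0.16. At the first probe the bright arrays read -3.21 to -1.03 in RFIneg and -2.31 to 0.37 in RFIplR, and the groups overlapped.

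Antioxidant enzymes had 17 of 22 genes higher with a median of 0.14. The mitochondrial thioredoxin reductase TXNRD2 (0.28) and the peroxiredoxin PRDX6 (0.27) were at an unadjusted p under 0.05, and neither was without RFIneg 5 and 6. The list had 5 such members without RFIneg 8, and its median was 0.06 without RFIneg 7 and 0.07 without RFIneg 3. The plasma glutathione peroxidase GPX3 was higher by 0.53 and the metallothionein MT1A lower by 0.89, neither at that p.

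For glucose uptake and glycolysis, 12 of 13 measured genes were higher with a median of 0.21, and 5 were higher at an unadjusted p under 0.05. These were PFKM (0.52), PKM2 (0.39), PGK1 (0.38), PGAM1 (0.35) and the glycogen synthase GYS1 (0.36). PFKM read -0.15 to 0.53 on bright RFIneg and -0.62 to 0.02 on bright RFIplR arrays at its brighter probe, and these bright groups overlapped. The insulin-sensitive glucose transporter SLC2A4 was higher by 0.46, while GAPDH stood at 0.04 and GPI at -0.09. The same 5 members were at that p without RFIneg 5 and 6, without RFIneg 8 and without RFIplR 8, and 3 to 5 members were over all single arrays left out. The median was 0.33 without RFIneg 7.

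Cholesterol synthesis and uptake had 9 of 10 genes higher with a median of 0.26. MVK, mevalonate kinase, was higher by 0.59 (SE 0.26) and NSDHL, a later enzyme of the pathway, by 0.57 (SE 0.18). The NSDHL probe was well above background on 8 RFIneg and 5 RFIplR arrays. NSDHL read -0.74 to 0.64 on bright RFIneg and -0.84 to 0.01 on bright RFIplR arrays, and -1.80 and -1.09 against -2.28 to -1.85 on dim ones. The NSDHL groups overlapped on the bright arrays. Single arrays left out gave 1 to 4 members higher at that p. ABCA1, which exports cholesterol, was lower by 0.39. Branched-chain amino acid breakdown had 7 of 11 genes higher with a median of 0.10 and none at an unadjusted p under 0.05. Without RFIneg 7 that median turned to -0.03 with 5 of 11 higher, and without RFIneg 8 there was 1 member at that p. PCCB and AUH, enzymes of the pathway, stood at 0.24 and 0.22.

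Signalling genes showed no common direction. Of 16 genes of insulin and IGF signalling, 7 were higher with a median of -0.01. GRB10, an adaptor that restrains the insulin receptor, was lower by 0.34 (SE 0.16), the kinase GSK3B stood at 0.14 and the growth factor IGF2 differed by -0.02 (SE 0.11). Of 5 genes of the glucocorticoid response, FKBP5 was at 0.34 and KLF9 at -0.37 (all 10 KLF9 probes lower), neither at an unadjusted p under 0.05. In the circadian clock only 4 of 16 listed genes were measured, and the nuclear receptor RORA was lower by 0.44 (SE 0.16) while the repressor NFIL3 stood at 0.47 (SE 0.23). The median of these 4 was 0.01, and -0.41 without RFIneg 5 and 6. Among 6 measured genes of DNA replication and mitosis, the sliding clamp PCNA was higher by 0.35 (SE 0.14), by 0.14 within the bright and 0.82 within the dim arrays, and the kinase AURKB stood at 0.17. The medians of triglyceride synthesis, insulin and glucocorticoid signalling, the clock, matrix, both antigen presentation lists and chemokines lay close to 0 and took either sign as single arrays were left out.

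Matrix genes were spread around 0, with 7 of 19 higher, a median of -0.06 that turned above 0 in 3 of the 20 alternatives that did not leave out a single array, and none at an unadjusted p under 0.05. Fibronectin FN1 stood at -0.49, periostin POSTN at -0.37, the protease inhibitor TIMP2 at -0.28 and the collagen COL5A2 at 0.24. Without RFIneg 7 the median was 0.05 with 11 higher. Antigen presentation was level, with medians of 0.01 over 9 class II genes and -0.01 over 14 class I genes. The class I subunit B2M differed by -0.12 (SE 0.076), the class I gene SLA-8 by 0.16, the class II chaperone CD74 by -0.12 (SE 0.082) and the class II gene SLA-DQA1 by -0.14.

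Of the interferon response genes only 4 of 17 were higher, with a median of -0.14 and none at an unadjusted p under 0.05. MX1 stood at -0.43, the RNA sensor DDX58 at -0.47 and IRF7 at 0.21. Within the bright arrays the median was -0.06, and with slide and brightness both in the fit it turned to 0.29. It was -0.02 without RFIplR 3. Of 21 chemokines, cytokines and their receptors, 2 were lower at an unadjusted p under 0.05. CXCR4, a chemokine receptor of leukocytes, read -2.95 to -1.48 on bright RFIneg and -1.98 to -1.17 on bright RFIplR arrays, a difference of -0.54 (SE 0.20) with overlap. The cytokine IL6 was lower by 0.61 (SE 0.28) at a probe well above background on 6 RFIneg and 5 RFIplR arrays. These are also the numbers of bright arrays in the groups. Complement and coagulation had 4 of 15 genes higher with a median of -0.13 and none at an unadjusted p under 0.05. The plasminogen activators PLAU and PLAT stood at -0.56 and -0.33. Single arrays left out gave 0 to 3 members lower at that p and medians of -0.26 (without RFIplR 7) to -0.07 (without RFIneg 4). That median was -0.30 without RFIneg 5 and 6, and it turned to the other sign without the brightness term and with normexp background correction.

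Ribosomal protein genes had the narrowest range of the 27 lists, with 6 of 33 higher and differences of -0.17 to 0.05 around a median of -0.04, with RPL14 at -0.17 and RPS21 at -0.12. Without RFIplR 1 the median was -0.0063 with 16 higher. The median reached 0.11 among the alternatives and turned above 0 with slide and brightness in the fit and with normexp background correction. Proteasome and chaperone genes had 18 of 24 higher with a median of 0.12. The small heat shock protein HSPB1 (0.42, SE 0.18) and the mitochondrial co-chaperone HSPE1 (0.40, SE 0.17) were at an unadjusted p under 0.05, and neither was without RFIneg 5 and 6. The list had 3 such members without RFIneg 8, 4 without RFIplR 8 and 0 without RFIneg 7, and its median was 0.07 without RFIplR 5.

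**Figure D4:**
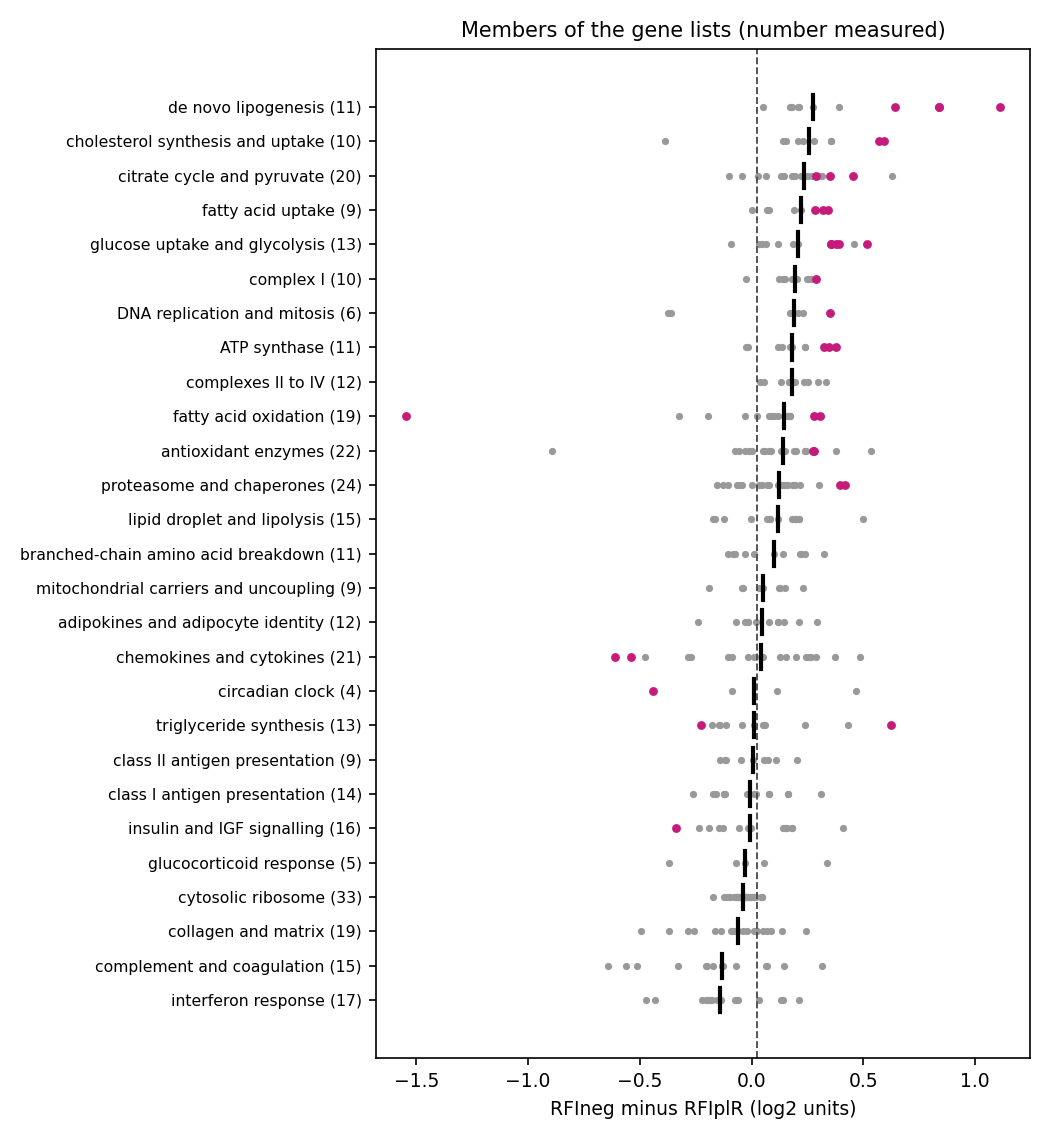
Differences RFIneg minus RFIplR (log2 units) of the measured members of 27 gene lists, 1 point per gene at its brightest kept probe, pink where the unadjusted p is under 0.05, with a black bar at the list median and a dashed line at the median of all genes (0.026). Fatty acid synthesis has the highest median (0.28) and the interferon response the lowest (-0.14).

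Genes chosen because they lead the comparison of RFIneg with the freely fed RFIpl group were then read in the groups of equal feeding. That comparison shares the RFIneg arrays, so only the levels are set side by side. The carboxylesterase CES1 had a median level of 5.71 on bright RFIneg, 5.76 on bright RFIplR and 2.29 on bright RFIpl arrays. The carbonic anhydrase CA3 stood at 6.96, 7.09 and 4.09, and the cytochrome P450 CYP2A19 at 5.14, 5.73 and 1.70. Bright RFIpl arrays ranged from 0.73 to 5.64 for CES1. RFIpl 3 stood at the level of the other groups for CES1 (5.64) and CYP2A19 (5.44). Some RFIpl arrays held other tissue. MYLPF read 3.76 on RFIpl 1 and 8.75 on RFIpl 2 at the probe given above. The epithelial marker SFN read 5.27 and 3.73 on RFIpl 7 and 8. Their part in the RFIpl medians was not tested. The differences between RFIneg and RFIplR were 0.18 (SE 0.38) for CES1 and 0.29 (SE 0.31) for CA3, with 95% intervals of -0.62 to 0.98 and -0.36 to 0.95. Both intervals include 0, and a 95% interval this wide does not show that the groups are alike.

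CYP2A19 was lower in RFIneg by 0.97 (SE 0.35, adjusted p = 0.405, limma), and all 7 of its probes were lower, 4 at an unadjusted p under 0.05. Its bright arrays RFIneg 2, 3, 4, 5, 6 and 8 read 5.63, 5.42, 4.36, 4.71, 4.86 and 6.12, and the bright RFIplR arrays 5.40 to 5.94. The dim arrays read 0.60 and 2.33 in RFIneg and 2.42 to 4.23 in RFIplR. The difference was -0.50 within the bright and -2.02 within the dim arrays. FHL1, a LIM domain protein, was lower by 0.20 (SE 0.091), and all 16 of its probes were lower.

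Of the 13 genes of that set, 11 were measured, and 7 had a difference above 0. At an unadjusted p under 0.05, 0 were higher and 2 were lower. MYOC (myocilin), UCP3 (an uncoupling protein) and MOCS1 (of molybdenum cofactor synthesis) differed by 0.12, -0.19 and 0.26. S100A8 and S100A12, calcium-binding proteins of myeloid cells, differed by 0.45 and -0.06, the junction protein CLDN3 by 0.01 and P311 by 0.13. On the dim arrays S100A8 was higher by 1.28, and on the bright ones by 0.09.

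**Figure D5:**
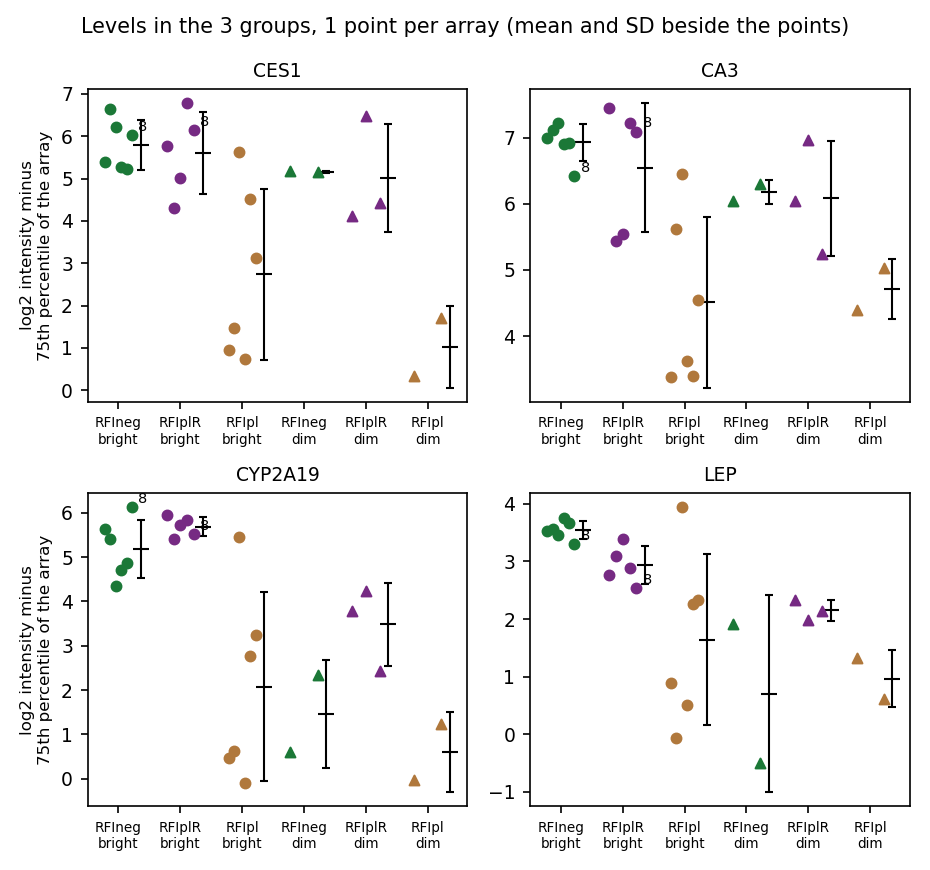
Levels of CES1, CA3, CYP2A19 and LEP on each array of the 3 groups (log2 intensity minus the 75th percentile of the array), split by brightness class, with mean and SD beside the points. The bright medians of CES1 are 5.71 in RFIneg and 5.76 in RFIplR against 2.29 in RFIpl, and RFIneg 7 is the dim array at -0.50 for LEP.

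Some of the largest single differences fell outside these rules and were picked after their values were seen. At 4 of its 13 probes ACTA1 was higher by 2.16 to 3.48, with the levels of RFIneg 5 and 6 described above, while its brightest probe stood at -0.14. Actin genes are nearly identical to each other, so a probe can read more than one of them. The stem cell factor receptor KIT was lower at all 3 probes (-1.165, -1.01 and -1.025), each at an unadjusted p under 0.05. At its brightest probe KIT read 0.96 to 2.29 on bright RFIneg arrays apart from RFIneg 8 at 3.23, and 2.50 to 4.44 on bright RFIplR arrays. The bright KIT groups thus overlapped. TNMD, tenomodulin, was higher by 1.83 without reaching that p, and read -6.69 on RFIplR 7 against -0.75 to 2.06 on the other bright RFIplR arrays. COMP, a matrix protein of cartilage and tendon, was higher by 1.04 and 1.27 at its 2 probes and was likewise lowest among bright arrays on RFIplR 7, at -3.90 and -1.86. Low arrays occurred in both groups. Among dim arrays RFIneg 7 was lowest, at -3.73 for TNMD and -4.52 and -3.48 for COMP. RFIplR 2 came next, at -2.46 for TNMD and -3.87 and -3.19 for COMP. FXYD2, a subunit of the sodium pump, was higher by 1.35 at a dim probe.

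Markers of other cell types were read on the same arrays. Of 20 skeletal muscle markers 10 were measured, 5 of them higher, with a median of 0.07, or -0.03 without RFIneg 5 and 6. The log2 of their summed intensity was 4.38 to 5.72 on bright RFIneg and 4.32 to 6.39 on bright RFIplR arrays. These sums take each gene at its brightest probe. For ACTA1 that probe read 4.40 and 3.64 on RFIneg 5 and 6 and 4.98 on RFIplR 5, unlike the ACTA1 probe first given. The sums therefore do not show that muscle content was equal. For 11 macrophage markers 6 were measured with a median of -0.03, and sums of 2.91 to 4.26 and 2.95 to 4.58. For T cells 4 of 11 were measured (median -0.13), for B cells 2 of 6 (0.08) and for neutrophils 4 of 6 (0.01). Endothelial markers had 7 of 10 measured, with FLT1, a receptor of vascular growth factor, higher by 0.28 and CLDN5, a junction protein, at -0.38, a median of 0.14 (0.07 without RFIplR 8), and sums of 5.96 to 6.46 and 5.99 to 6.63. Fibroblast markers (4 of 8) had a median of 0.09 and smooth muscle markers (4 of 7) of -0.11. Among epithelial markers, 4 of 12 measured, SFN was lower by 0.62 with no overlap on the bright arrays (-2.78 to -1.53 in RFIneg, -1.49 to -1.36 in RFIplR), while KRT8 and CDH1 stood at 0.26 and 0.41. The median of the epithelial list was -0.05, and -0.28 to 0.15 as single arrays were left out. The medians of macrophage, T cell, neutrophil and fibroblast markers also took either sign then. No erythroid marker (0 of 7) was measured. The part of these cells in the metabolic differences was not tested.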

How the data were processed

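Fat from 24 pigs was hybridised to 24 single-dye arrays, and the 16 arrays of RFIneg and RFIplR were compared. Samples were grouped by their titles. RNA came from frozen tissue and was labelled with Cy3, per the labels' protocols. The intensity values are the processed signals that Feature Extraction 10.7.3.1 wrote for each spot, per the file headers. The authors' deposited value table holds log2 intensities centred on the median of each array, as a comparison with the scanner values showed, and the submitters' processing notes list R 2.10.0.

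Here spots of one probe were averaged (43603 probes), values below 1 were set to 1, and log2 values were taken minus the 75th percentile of the array. Arrays with a 75th percentile over 200 were called bright. Probes well above background on at least 6 of 8 arrays of either group were kept, with at most 4 of 16 values missing. That kept 25386 probes, 4218 of them through RFIneg alone and 256 through RFIplR alone, and 93 had a missing value. RFIneg had 6 bright arrays and RFIplR 5, so a probe detected on bright arrays alone could pass only through RFIneg. These counts are therefore no measure of detection by line. The fit had group and brightness class as terms (limma 3.58.1 in R 4.3.3), with Benjamini-Hochberg adjustment over the kept probes and a threshold of 0.05, and was tested on simulated data. Unadjusted p-values from the same fit serve only as descriptions.

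Probes were named by accession (7211), gene identifier (1365), the symbol in the files (3595) or the description (2) through RefSeq names, while 2 matched several genes and 31428 had no name. Some lists share genes. A gene stands in a list by its kept probe with the highest mean. Members and lists were chosen with earlier results of these data known. The genes named are the 10 with the smallest p on either side and the 2 with the smallest p in each pathway list, with the fat and free-fed panels whole, and further genes are named as chosen afterwards. Lists were described by counts and medians and not tested. The alternatives covered background correction, scaling, filter, batch terms, variance, the deposited table and each array left out in turn, and the arrays RFIneg 5 and 6 were left out together after the data had been seen. P-values measure the spread between pigs, 1 array each.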

Additional observations from a re-analysis of the deposited data

Results flagged for a closer look

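On 9 of 128 sets of bright arrays examined, 1 array lay far from the others of its group, and chance gives about 5% of such sets. The value of a list is the median deviation of its members from their mean over the arrays of the same brightness. RFIneg 8 was low for ACLY (6.20, the others 7.48 to 8.11), for the fatty acid uptake list (-0.35, the others 0.11 to 0.33) and for the fat metabolism panel (-0.24, the others 0.085 to 0.27). RFIplR 7 was high for SNUPN (2.80, the others 1.56 to 1.78) and low for the complement and coagulation list (-0.65, the others 0.11 to 0.36). RFIplR 8 was high for the class I antigen presentation list (0.22, the others -0.032 to 0.018). RFIneg 6 was high for the circadian clock list (0.39, the others -0.42 to -0.13), RFIneg 3 for mitochondrial carriers and uncoupling (0.35, the others -0.15 to 0.024), and RFIneg 2 for ADIPOQ (8.35, the others 8.19 to 8.23).

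The difference between RFIneg and RFIplR itself differed between dim and bright arrays at 10 probes (0.0394%) at an adjusted p under 0.05 in limma, 4 of which had a symbol. NOP58, a protein of small nucleolar ribonucleoproteins, differed by 1.96 on dim and -0.013 on bright arrays, a gap of 1.97. TES, a focal adhesion protein, differed by 1.63 and -0.34, a gap of 1.97. CYP4A24, a fatty acid hydroxylase, differed by 1.58 and -0.17, a gap of 1.75. B3GALT4, a galactosyltransferase, differed by 1.45 and -0.27, a gap of 1.72. The dim class held 2 RFIneg and 3 RFIplR arrays.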

How the results depend on the processing

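No probe passed the adjusted threshold in limma under the other settings except 1 on the dim arrays alone, and leaving out single arrays gave 0 to 17, with 17 without RFIneg 8 and 1 without RFIplR 8. The 2584 probes at an unadjusted p under 0.05 became 467 without the brightness term, 1084 with slide in its place and 4077 with array weights, and 1976 to 3756 without single arrays. The cause was not tested. No label said that replicate numbers pair the pigs. Deviations of same-numbered arrays correlated at -0.32 to 0.46, which does not settle whether the pigs were paired. The replicate block gave 0 called probes and 2022 at an unadjusted p under 0.05. Of the named genes at that p, GYS1 (-0.082) and LRSAM1 (-0.083) turned, with normexp. The other turns were in genes that did not reach that p. With all 24 arrays LEP was 0.021 and CLDN3 -0.0063. With array weights they were 0.11 and -0.16. On bright arrays alone IGF2 was 0.062, PNPLA2 -0.11, PCK1 -0.25, CLDN3 -0.18 and LEP 0.61. On dim arrays VDAC2 was -0.094, ADIPOQ 0.15, S100A12 0.68, MYOC -0.076, IRF7 -0.065 and LPL -0.078. With median scaling CLDN3 was -0.0072. Without the brightness term S100A12 was 0.10, ADIPOQ 0.083, CLDN3 -0.22, AURKB -0.14, CEBPB -0.14, B2M 0.021, LEP 0.19 and SLA-DQA1 0.068. With normexp ADIPOQ was 0.14, IGF2 0.12, B2M 0.014, RPS21 0.038, SLA-DQA1 0.041, LEP 0.21 and CLDN3 -0.25. With scan day and brightness S100A12 was 0.031, CLDN3 -0.091 and ADIPOQ 0.0024. With slide and brightness CLDN3 was -0.14, ACACA -0.011, IGF2 0.096 and LEP 0.40. With slide alone PNPLA2 was -0.083, IGF2 0.094, AUH -0.033, CES1 -0.026, LEP 0.32 and SDHA -0.037. Without RFIneg 5 and 6 CLDN3 was -0.12, S100A12 0.037 and MYOC -0.00956. Without single arrays LEP spanned -0.14 to 0.43, IGF2 -0.064 to 0.049, ADIPOQ -0.088 to 0.0074, ACACA -0.0098 to 0.33, PNPLA2 -0.041 to 0.16, S100A12 -0.21 to 0.066, UCP3 -0.40 to 0.0037, CES1 -0.033 to 0.38 and CLDN3 -0.083 to 0.15. The medians of fatty acid synthesis (0.235 to 0.457), the citrate cycle, glycolysis, cholesterol synthesis and the 3 respiratory lists kept their sign in all 20 alternatives, which are 19 other fits and the mean of all probes of a gene. The citrate cycle median was as low as 0.045 among them. Fatty acid uptake, lipid droplet and lipolysis, antioxidant enzymes, branched-chain amino acid breakdown and adipokines kept their sign as well. A kept sign therefore does not set a list apart. An array had 43.1% to 79.9% of its probes well above background, which limits what could be measured.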
